A study of Homo sapiens with 12 samples.

Results

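The alpha and beta tubulins described here are the 10 genes TUBA1A, TUBA1B, TUBA1C, TUBA4A, TUBB, TUBB2A, TUBB2B, TUBB3, TUBB4B and TUBB6, taken by symbol from the 15798 genes of a ribosome profiling table. Of the 10, 4 encode alpha-tubulin and 6 encode beta-tubulin. The libraries came from HCT116, a human colorectal cancer cell line, kept for 24 h in DMSO or in trametinib at 100 nM, a drug that blocks the kinases MEK1 and MEK2. From each of the 3 dishes per treatment an input library (fragmented cytoplasmic RNA, for mRNA abundance) and a library of ribosome footprints (the fragments that ribosomes shield from RNase I) were made, 12 libraries in all. All dishes received cycloheximide shortly before lysis, which halts elongating ribosomes, and the comparison asks which mRNAs MEK1/2 inhibition altered in abundance or in translation. The results therefore concern 1 cell line, 1 dose and 1 time point.

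Alpha- and beta-tubulin form the heterodimer that assembles into microtubules, the hollow filaments of the mitotic spindle, of intracellular transport and of cilia. Vertebrates carry several isotype genes of each kind, whose proteins differ mostly in the acidic tail at the C-terminus. Cells adjust the level of tubulin mRNA to the amount of free heterodimer: the factor TTC5 binds the first residues of a tubulin chain as it leaves the ribosome and, with SCAPER and the CCR4-NOT deadenylase, brings about decay of the mRNA being translated.

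Input libraries held 2276693 to 2845568 counts and footprint libraries 10127477 to 19181588. DMSO replicate 1 stood apart from the other DMSO replicates. Across 7669 genes with a mean of at least 100 normalized counts, the deviations of its input and of its footprints from their group means correlated with r = 0.816, against -0.12 to 0.34 in the other 5 dishes, a description in which the genes share both libraries. Counts below are therefore also given without that dish. Of 8 epithelial markers, CDX1 was at 0 in all input libraries and the other 7 were detected, with a summed level of 30110 to 45350 normalized counts in DMSO and 50145 to 62385 under trametinib. The leukocyte markers reached a summed level of 2.57 at most. The fibroblast list summed to 38.6 to 92.6 normalized counts, almost all of it COL1A1. The endothelial list summed to 4.68 to 21.6 in DMSO and 52.9 to 59.2 under trametinib, through VWF, and the neuronal list to 253 to 636 and 383 to 473, through SYT1 and MAP2, with SNAP25 at 1 count or fewer in every input library. The part of these markers in the tubulin results was not tested.

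The tubulin reading frames resemble each other so closely that many reads cannot be given to 1 gene, and the table counted only reads that matched a single gene symbol. Against the Gencode V44 annotation (the authors used V38, both on GRCh38), the coding sequences of TUBA1B and TUBA1C were 97.3% identical and those of TUBB2A and TUBB2B 98.1%, while alpha and beta sequences shared 61.0% to 65.9% of aligned bases. The first 30 coding bases, about the length of a footprint, are shown for the 4 alpha-tubulins, for TUBB and TUBB4B, the beta-tubulins with the most counts, and for the closely related TUBB2A and TUBB2B. Capitals mark the first 4 codons, the stretch that encodes the residues recognised in autoregulation. The alpha start is split by an intron after the first codon, and the coordinates are of GRCh38.

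TUBA1B (minus strand, chr12:49131298-49131300 and chr12:49129696-49129722): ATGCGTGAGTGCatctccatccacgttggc
TUBA1A (minus strand, chr12:49188977-49188979 and chr12:49186807-49186833): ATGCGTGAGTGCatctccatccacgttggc
TUBA1C (plus strand, chr12:49265182-49265184 and chr12:49269465-49269491): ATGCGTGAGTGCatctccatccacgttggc
TUBA4A (minus strand, chr2:219253856-219253858 and chr2:219252204-219252230): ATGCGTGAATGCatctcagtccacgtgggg
TUBB (plus strand, chr6:30720507-30720536): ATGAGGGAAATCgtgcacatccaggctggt
TUBB4B (plus strand, chr9:137241361-137241390): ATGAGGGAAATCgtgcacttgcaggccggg
TUBB2A (minus strand, chr6:3157434-3157463): ATGCGCGAGATCgtgcacatccaggcgggc
TUBB2B (minus strand, chr6:3227514-3227543): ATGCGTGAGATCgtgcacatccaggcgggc

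TUBA1A, TUBA1B and TUBA1C have the same 30 bases at the start, so a footprint within that window belongs to none of them in this table. The last 30 coding bases, the end of the acidic tail with the stop codon, are shown for 2 pairs of isotypes, TUBA1C with TUBA4A and TUBB2A with TUBB2B. Capitals here mark the last codon before the stop.

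TUBA1C tail (plus strand, chr12:49273198-49273227): gacggagaggatgagggtgaagagTATtaa
TUBA4A tail (minus strand, chr2:219250352-219250381): tatgaggacgaggatgagggagaaGAAtaa
TUBB2A tail (minus strand, chr6:3153863-3153892): gaggaggaggagggcgaggacgagGCTtaa
TUBB2B tail (minus strand, chr6:3224751-3224780): gaggaggaggagggcgaggacgagGCGtag

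TUBA1C ends on a tyrosine codon. TUBA4A ends on a glutamate codon and so lacks the terminal tyrosine, the residue that tubulin carboxypeptidases remove from alpha-tubulin. TUBB2A and TUBB2B part only in the last codon and the stop. Over the whole reading frame, 20.0% of the 30-base windows of TUBA1B occurred in no other symbol's reading frame, 27.6% of those of TUBA1A, 27.6% of those of TUBA1C and 84.6% of those of TUBA4A. Among beta-tubulins the share was 98.8% for TUBB, 90.2% for TUBB6, 79.5% for TUBB4B and 23.5% for both TUBB2A and TUBB2B, which shared 1001 of 1309 windows with each other. TUBB3 kept 46 of 1324 windows (3.47%), because an overlapping gene without a symbol holds 1269 of them in V44. Whether TUBB3 shared its reads in the same way under V38 was not tested. When all transcripts were considered, the share of TUBB was 42.8%, the pseudogene TUBBP1 holding 628 of its windows.

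**Figure D1:**
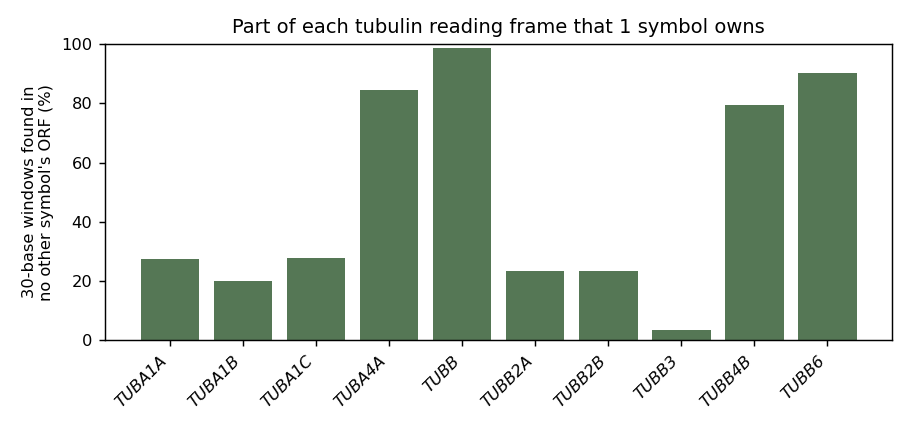
Share (%) of the 30-base windows of each tubulin reading frame that occur in the reading frame of no other gene symbol in Gencode V44. TUBB, TUBB6, TUBA4A and TUBB4B own 79.5% or more of their windows, TUBA1A, TUBA1B, TUBA1C, TUBB2A and TUBB2B own 20.0% to 27.6%, and TUBB3 owns 3.47%.

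TUBB2B, a beta-tubulin best known from neurons, was not detected in any of the 6 input libraries. A count of 0 allows a share of up to 0.000105% to 0.000132% of the counts in each, for counting error only and for the windows that TUBB2B does not share. Its footprint counts were 3, 0 and 2 in the DMSO replicates and 2, 0 and 1 under trametinib. It did not reach 10 counts in any input library, where 3 such libraries were required for testing, and the other 9 members were among the 10663 genes that met it.

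To set levels of different genes side by side, normalized counts were divided by the number of assignable windows and multiplied by a constant. Assignable windows were those in no other symbol's reading frame, 1290 for TUBB and 266 for TUBA1B. Against all transcripts these 2 genes have 559 and 175, so their order can depend on that choice. On that scale TUBA1B stood first in DMSO input, at 10374 ± 3172 (SD, n = 3), followed by TUBB at 6269 ± 2267, TUBA1C at 3545 ± 499 and TUBB4B at 2923 ± 1047. The ranges of each of these neighbours overlapped, and all 4 lay above the other members. TUBB3 (856 ± 336) overlapped TUBB2A (434 to 470), though its place rests on the 46 windows it keeps in V44, while reads were counted on V38. Per kb of reading frame the mean of TUBB3 in DMSO input was 29.1. That is below TUBB2A (104), TUBB6 (294), TUBA1A (63.0) and TUBA4A (145). TUBB2A lay above TUBB6 (333 ± 72.5) in every library. TUBA1A (233 ± 108) overlapped both TUBB6 and TUBA4A (176 ± 109). Under trametinib TUBB came first in input, at 2016 ± 148, with TUBA1B below it in every library at 1672 ± 196. In footprints under trametinib those 2 genes overlapped, at 2381 ± 159 for TUBA1B and 2229 ± 57.2 for TUBB.

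The 10 genes together held 0.179%, 0.273% and 0.365% of the counts of DMSO input replicates 1, 2 and 3. Under trametinib they held 0.0751%, 0.0786% and 0.0843%. Every trametinib library was below every DMSO library, and the DMSO replicates were spread more widely (SD 0.0928%) than the trametinib replicates (SD 0.00468%). In footprints the shares were 0.210%, 0.402% and 0.498% in DMSO and 0.0948%, 0.0903% and 0.0940% under trametinib. DMSO replicate 1 was the lowest DMSO replicate in both assays. Since each library is scaled to the others, these values are relative to all other mRNAs, a change common to all genes cannot be seen in them, and fewer cells with a given mRNA cannot be told apart from less mRNA per cell.

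**Figure D2:**
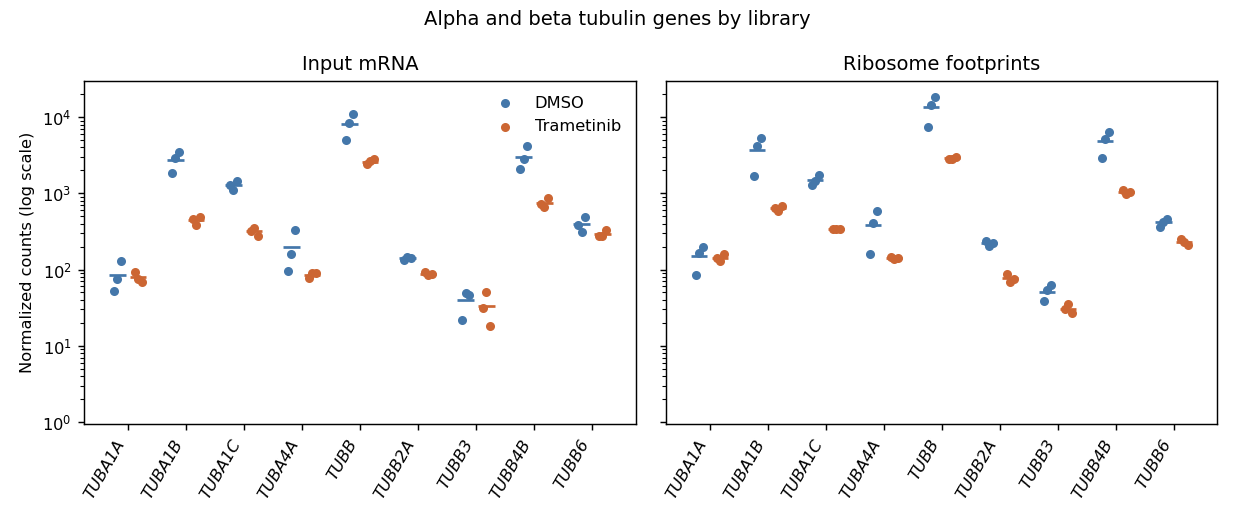
Normalized counts (log axis) of the 9 tested tubulin genes in input (left) and ribosome footprints (right). Points are single libraries, with 3 per group in the order of their replicate numbers, and lines are group means. Trametinib libraries lie below all DMSO libraries for 6 genes in input and 8 in footprints, and TUBA1A overlaps in both panels. TUBB2B, at 0 to 3 counts, is not drawn.

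In input, 6 of the 9 tested tubulin genes fell under MEK1/2 inhibition (edgeR quasi-likelihood test, Benjamini-Hochberg adjusted p under 0.05 over 10663 genes), against 16.8% of all tested genes (32.1% in either direction). None of the other 3 rose, and limma-trend also gave 0 higher and 6 lower, DESeq2 0 higher and 5 lower. The median change of the 9 was -1.18 on the log2 scale, beside -0.00 for all tested genes. Without DMSO dish 1 the number that fell was again 6, and 1923 of all 10663 tested genes fell, beside 1787 in the main result.

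TUBA1B is the main alpha-tubulin of dividing cells (chromosome 12, 49127782 to 49131397, minus strand). Its normalized counts in input were 1840, 2941 and 3498 in DMSO replicates 1 to 3 and 462, 386 and 486 under trametinib. The groups lay far apart, with DMSO replicate 1 the lowest of its group, and the mean under trametinib was 16.1% of that in DMSO. The fitted log2 change of TUBA1B was -2.63 ± 0.22 (SE), with an edgeR adjusted p of 2.33e-06.

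TUBA1C, a further alpha-tubulin of proliferating cells (chromosome 12, 49188736 to 49274600, plus strand), had 1301, 1108 and 1473 normalized counts in DMSO input and 322, 350 and 275 under trametinib. DMSO replicate 1 of TUBA1C lay between the other two, unlike that of TUBA1B. TUBA1C fell by 2.03 ± 0.17 on the log2 scale (edgeR adjusted p = 2.23e-06).

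TUBA4A, the alpha-tubulin encoded without a terminal tyrosine (chromosome 2, 219249710 to 219277902, minus strand), had 94.9, 162 and 330 normalized counts in DMSO input and 77.0, 90.1 and 90.0 under trametinib. The groups did not overlap, but DMSO replicate 1 came close to the trametinib libraries. TUBA4A fell by 1.18 ± 0.37 on the log2 scale (edgeR adjusted p = 0.0295). The call was lost in 5 of 6 fits that left out 1 library, and without DMSO replicate 3 the change was -0.57 (adjusted p = 0.124).

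TUBA1A is the alpha-tubulin that predominates in neurons (chromosome 12, 49184686 to 49189080, minus strand), and its locus overlaps that of TUBA1C on the opposite strand. Its normalized counts in input were 51.8, 75.6 and 129 in DMSO and 93.9, 74.6 and 69.4 under trametinib. The trametinib values lay within the range of the DMSO values. The log2 change of TUBA1A was -0.09 ± 0.32 (edgeR adjusted p = 0.859, 95% interval -0.78 to 0.60), a width that leaves changes of either direction possible, and it was 0.33 without DMSO replicate 3.

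TUBB, the most widely expressed beta-tubulin (chromosome 6, 30717435 to 30725538, plus strand), had 5054, 8316 and 10890 normalized counts in DMSO input. Under trametinib it had 2402, 2620 and 2782. The trametinib values agreed closely with one another while the DMSO values covered a wide range, all of it higher. TUBB fell by 1.63 ± 0.23 on the log2 scale (edgeR adjusted p = 1.59e-04).

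TUBB4B, another widely expressed beta-tubulin (chromosome 9, 137241287 to 137243707, plus strand), had 2094, 2800 and 4233 normalized counts in DMSO input and 717, 669 and 877 under trametinib. The order of the DMSO replicates was the same as for TUBB. TUBB4B fell by 2.00 ± 0.23 on the log2 scale (edgeR adjusted p = 3.61e-05).

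TUBB2A (chromosome 6, 3153497 to 3157544, minus strand) had 134, 145 and 140 normalized counts in DMSO input and 91.5, 84.9 and 87.4 under trametinib. Here the DMSO replicates lay within a narrow range, replicate 1 included, and the groups were apart. TUBB2A fell by 0.66 ± 0.20 on the log2 scale (edgeR adjusted p = 0.0258), a call that was lost in DESeq2 (adjusted p = 0.0786) and in 4 of 6 fits that left out 1 library.

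TUBB6 and TUBB3 did not pass the test in input. TUBB6, a divergent beta-tubulin (chromosome 18, 12307669 to 12344320, plus strand), had 388, 311 and 482 normalized counts in DMSO and 274, 278 and 332 under trametinib, with a log2 change of -0.41 ± 0.19 (edgeR adjusted p = 0.123). TUBB3, the isotype used as a marker of neurons (chromosome 16, 89921392 to 89938761, plus strand), had 7 to 23 raw counts in any input library. Its log2 change of -0.22 ± 0.42 (edgeR adjusted p = 0.729) had a 95% interval from -1.13 to 0.69, and its groups overlapped.

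In all, 6 of the 9 genes had every trametinib input library below every DMSO library, as did 23.3% of all tested genes. The 4 genes with the highest levels in DMSO also had the changes furthest below 0. Level and change use the same DMSO libraries, and a relation between them was not tested. Members with near-identical sequences share the reads that were set aside, so their values are not independent of the annotation.

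In footprints, 8 of the 9 tested tubulin genes fell, against 25.6% of all tested genes (49.4% in either direction), and the median change of the 9 was -1.53 on the log2 scale, beside -0.01 for all tested genes. All 5 tested beta-tubulins fell, among them TUBB6 and TUBB3, which had not passed in input, and of the alpha-tubulins only TUBA1A did not pass. DESeq2 and limma-trend also called 8. Without DMSO dish 1, an alternative chosen after seeing the data, all 9 fell. Of all 10663 tested genes 3247 then fell, beside 2727 in the main result. Scaling by library totals put the median change of all genes in footprints at 0.16 and moved the share of higher genes among all calls from 48.3% to 64.8%. Under it 7 tubulin genes fell, and 1944 of all 10663 tested genes.

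TUBA1B footprints numbered 1714, 4183 and 5306 normalized counts in DMSO and 633, 591 and 676 under trametinib. The gap between the groups was wide, and DMSO replicate 1 was again the lowest. TUBA1B footprints fell by 2.56 ± 0.35 on the log2 scale (edgeR adjusted p = 4.27e-04).

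TUBA1C footprints numbered 1273, 1448 and 1726 in DMSO and 345, 336 and 340 under trametinib. The trametinib replicates hardly differed, and the log2 change of -2.12 ± 0.13 had the lowest adjusted p of the 9 members (4.07e-06, edgeR). TUBA4A footprints numbered 161, 402 and 593 in DMSO and 146, 137 and 143 under trametinib, a log2 change of -1.43 ± 0.38 (edgeR adjusted p = 0.0123). DMSO replicate 1 of TUBA4A was barely above the trametinib libraries, and without trametinib replicate 3 the adjusted p was 0.0505. TUBA1A footprints numbered 84.7, 163 and 198 in DMSO and 141, 130 and 158 under trametinib, so that DMSO replicate 1 lay below and replicates 2 and 3 above all trametinib libraries. The log2 change of TUBA1A was -0.05 ± 0.27 (edgeR adjusted p = 0.888), and without DMSO replicate 1 it was -0.34 (adjusted p = 0.0400).

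TUBB footprints, of which a larger part can be assigned than of TUBA1B, numbered 7372, 14509 and 18587 normalized counts in DMSO and 2857, 2814 and 2958 under trametinib. The mean under trametinib was 21.3% of that in DMSO, compared with 32.2% in input. TUBB footprints fell by 2.23 ± 0.29 on the log2 scale (edgeR adjusted p = 3.30e-04). TUBB4B footprints numbered 2927, 5127 and 6396 in DMSO and 1094, 984 and 1038 under trametinib, a log2 change of -2.21 ± 0.25 (edgeR adjusted p = 1.53e-04).

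TUBB2A footprints numbered 236, 201 and 226 in DMSO and 87.2, 67.8 and 74.2 under trametinib. The mean fell to 34.6% of that in DMSO, compared with 63.0% in input, and the log2 change was -1.53 ± 0.14 (edgeR adjusted p = 5.21e-05). TUBB6 footprints numbered 361, 422 and 467 in DMSO and 253, 229 and 212 under trametinib, without overlap. TUBB6 footprints fell by 0.85 ± 0.13 on the log2 scale (edgeR adjusted p = 7.06e-04). TUBB3 footprints numbered 38.3, 53.4 and 62.7 in DMSO and 30.1, 34.9 and 27.1 under trametinib. The groups of TUBB3 were close together, the log2 change was -0.74 ± 0.21 (edgeR adjusted p = 0.0187), and the call was lost in 4 of 6 fits that left out 1 library and with scaling by library totals (adjusted p = 0.0573). Every trametinib footprint library was below every DMSO one for 8 of the 9 genes, and for 30.3% of all tested genes.

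**Figure D3:**
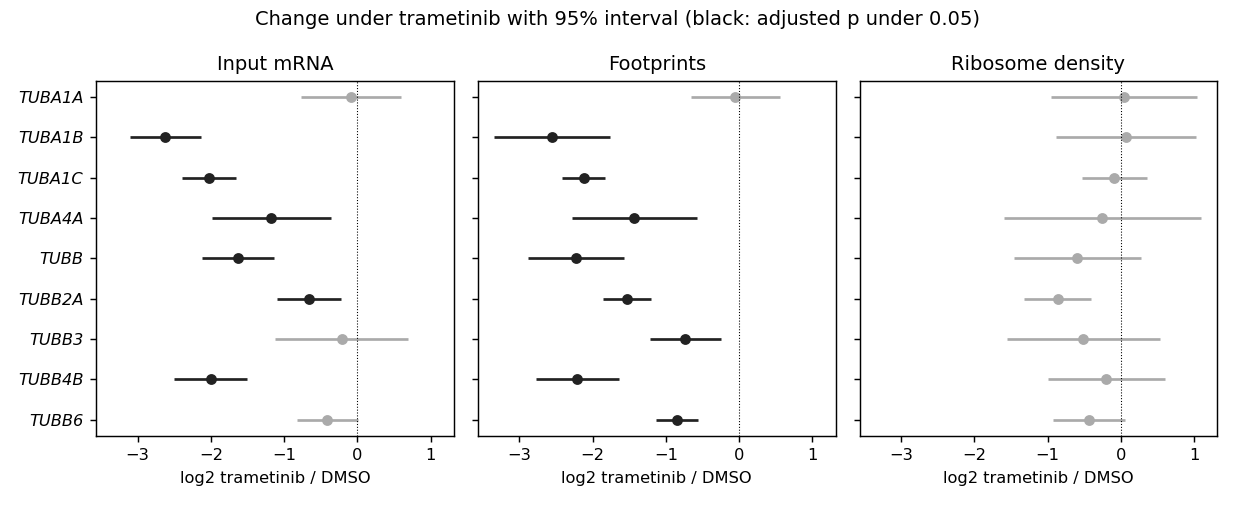
Log2 change under trametinib relative to DMSO for the 9 tested tubulin genes in input, footprints and ribosome density, with 95% intervals from edgeR (black, adjusted p under 0.05; grey, not called). 6 genes are black in input, 8 in footprints and 0 in ribosome density, where the estimates of all 5 beta-tubulins drawn lie below 0.

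Ribosome density, the ratio of footprints to input, asks whether an mRNA is occupied by more or fewer ribosomes than its abundance accounts for, relative to the other mRNAs. The size factors set the typical gene near 0, so a change in occupancy common to all mRNAs cannot be seen in it. By polysome profiling the paper reports that this treatment lowered global translation in HCT116, a fall that the ratio does not measure. It was tested as the interaction of assay and treatment over the 12 libraries. By edgeR, 0 of the 9 tubulin genes passed, against 1.05% of all tested genes (0.0469% higher and 1.00% lower). At an unadjusted p under 0.05 there was 1, TUBB2A, beside 866 of the 10663 tested genes by edgeR. DESeq2 and limma-trend called 0 of 9 as well, with 1 each at that unadjusted level. The median change of the 9 was -0.25 on the log2 scale, beside -0.00 for all tested genes. The medians were -0.03 over the 4 alpha-tubulins and -0.51 over the 5 beta-tubulins tested among the members, a difference that was not tested. The beta-tubulin TUBB4A, not a member, went the other way at 0.53 ± 0.59.

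TUBB2A had log2 ribosome densities of 0.82, 0.48 and 0.68 in the DMSO dishes and -0.07, -0.32 and -0.24 under trametinib. The dishes of the 2 treatments were apart, and the change was -0.87 ± 0.22 (95% interval -1.33 to -0.40). Its edgeR adjusted p was 0.102, and the adjusted p was 0.0609 to 0.211 over 9 other settings and 0.0995 to 0.299 over 12 fits that left out 1 library.

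TUBB had log2 densities of 0.54, 0.80 and 0.77 in DMSO and 0.25, 0.10 and 0.09 under trametinib, again apart. Its change was -0.59 ± 0.40 (edgeR adjusted p = 0.819), with a 95% interval from -1.46 to 0.27. Fitted with a term for each dish, which removes the spread that the input and footprints of a dish share, the change was -0.56 ± 0.15 (adjusted p = 0.0800).

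TUBB6 was the other gene whose dishes did not overlap, at -0.10, 0.44 and -0.05 in DMSO and -0.12, -0.28 and -0.64 under trametinib. The gap between its groups was narrow, and its change was -0.43 ± 0.23 (edgeR adjusted p = 0.718). In all, 3 of the 9 genes had every trametinib dish below every DMSO dish, as did 8.99% of the 10614 genes with a density in every dish.

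The densities of the other members overlapped between treatments. TUBB4B had a mean of 0.65 ± 0.20 (SD, n = 3) in DMSO and 0.47 ± 0.20 under trametinib, and TUBB3 0.45 ± 0.36 and -0.01 ± 0.58. The fitted changes were -0.20 ± 0.37 for TUBB4B and -0.51 ± 0.49 for TUBB3. TUBA1B had 0.34 ± 0.38 in DMSO, where dish 1 was lowest, and 0.52 ± 0.09 under trametinib, a change of 0.07 ± 0.45. TUBA1C changed by -0.09 ± 0.21, the narrowest error of the alpha-tubulins (95% interval -0.53 to 0.35), TUBA4A by -0.25 ± 0.63 and TUBA1A by 0.04 ± 0.47. With a term for each dish the errors were narrower for each of them. The changes were then -0.18 ± 0.17 for TUBB4B, -0.52 ± 0.37 for TUBB3 and 0.17 ± 0.19 for TUBA1B. For TUBA1C, TUBA4A and TUBA1A they were -0.08 ± 0.17, -0.25 ± 0.23 and 0.04 ± 0.26. None of these passed. On simulated counts for these libraries the same test found 44 of 100 genes whose density was changed 2-fold and 89 of 100 changed 4-fold. The simulated input and footprints of a dish shared no spread, and the changed genes were drawn from all tested genes. The rates are therefore not those of any 1 member, and a change near 2-fold could be missed.

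**Figure D4:**
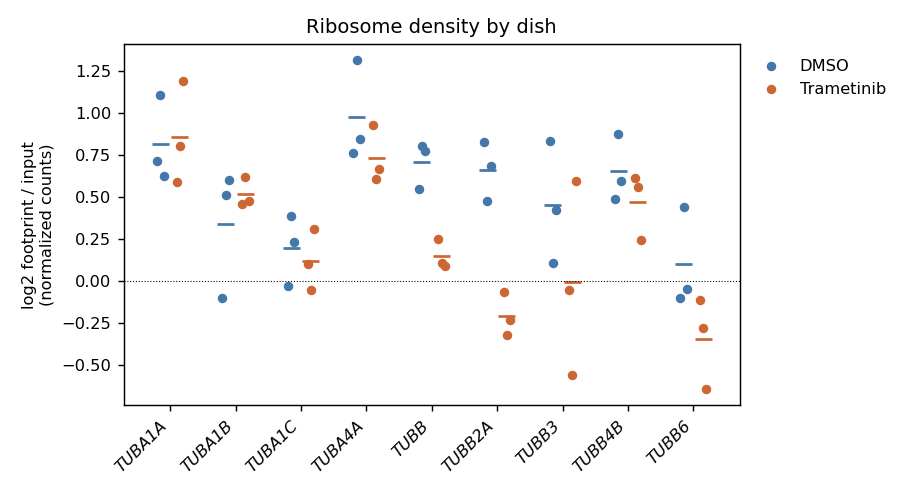
Log2 ribosome density (normalized footprint count over normalized input count of the same dish) of the 9 tested tubulin genes. Points are single dishes, with 3 per treatment in the order of their replicate numbers, and lines are means. TUBB, TUBB2A and TUBB6 show no overlap between treatments, and the other 6 overlap.

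The start of an mRNA bears on the comparison of densities, since mRNAs that begin with a C and a run of pyrimidines (5'TOP mRNAs) are those whose translation depends most on mTOR. The letters searched were a C at the annotated start followed by 4 pyrimidines on the sense strand, in RefSeq promoter windows. Of 15 annotated starts of the 10 tubulin genes, 1 had them, a start of TUBB, as did 1429 of 35116 starts of all genes (4.07%). This describes annotated starts only, not those used in HCT116.

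The make-up of the assigned tubulin counts differed between treatments. TUBA1A supplied 1.57%, 1.76% and 2.37% of the assigned alpha-tubulin counts in DMSO input and 9.82%, 8.29% and 7.54% under trametinib. In footprints the share of TUBA1A was 2.59% ± 0.05 in DMSO and 11.3% ± 0.59 under trametinib (SD, n = 3), so it was higher in all trametinib libraries of both assays while its own level did not pass the test. The share of TUBA4A went from 4.25% ± 1.65 to 9.28% ± 1.06 in input, although its own level, unlike that of TUBA1A, was called lower in both assays. TUBA1B went from 63.0% ± 6.43 to 48.0% ± 4.98, with every trametinib library below every DMSO library.

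Among beta-tubulins TUBB held its place, at 68.7% ± 2.93 of assigned counts in DMSO input and 69.0% ± 1.53 under trametinib. TUBB4B went from 26.0% ± 1.70 to 20.0% ± 1.71, and TUBB6 from 3.59% ± 1.27 to 7.80% ± 0.30. In footprints TUBB6 was at 2.40% ± 0.80 and 5.44% ± 0.47, while TUBB4B overlapped between treatments at 25.6% ± 1.01 and 24.4% ± 0.79. These shares are of reads that could be assigned, so they compare libraries rather than genes, and they were not tested.

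**Figure D5:**
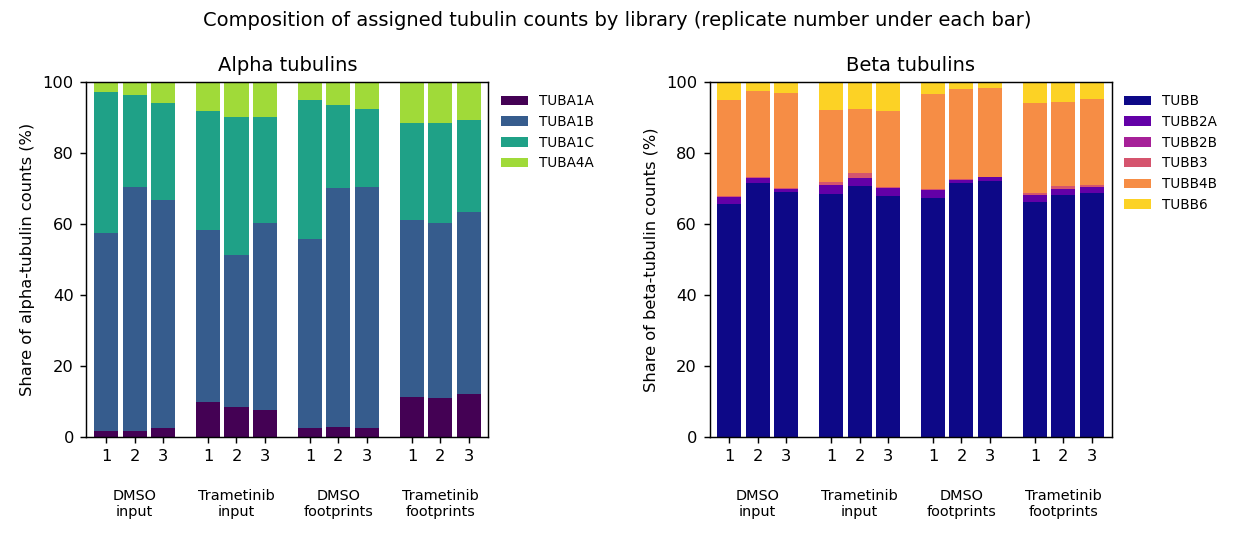
Share (%) of the assigned alpha-tubulin (left) and beta-tubulin counts (right) that each gene supplied, 1 bar per library. TUBA1A and TUBA4A take more of the alpha bars under trametinib, and TUBB stays between 65.7% and 72.2% of the beta bars throughout.

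Genes that nucleate, fold, regulate or modify tubulin were examined as 5 lists. In the list of gamma-, delta- and epsilon-tubulin and the gamma-tubulin ring complex, which nucleates microtubules at the centrosome, 8 of 13 tested genes fell in input and 8 of 13 in footprints, against 16.8% and 25.6% of all tested genes. The list medians were -0.96 and -0.92 on the log2 scale. TUBE1, the epsilon-tubulin of centrioles, had log2 changes of -2.64 ± 0.43 in input and -2.30 ± 0.44 in footprints. MZT1, a small subunit of the ring complex, had changes of -1.95 ± 0.26 and -1.38 ± 0.10. TUBG1, the main gamma-tubulin, had changes of -1.79 ± 0.19 and -1.84 ± 0.21, going from 666 ± 131 to 191 ± 10.3 normalized counts in input.

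The tubulin folding cofactors and prefoldin, which carry newly made tubulin to its folded dimer, changed in both directions. Of 13 tested genes 2 fell and 1 rose in input, with a median of -0.04, and 4 fell and 1 rose in footprints, with a median of -0.28. The counts that fell are near the shares of all tested genes that fell, 16.8% in input and 25.6% in footprints. The counts that rose are below the shares that rose, 15.4% and 23.9%. The prefoldin subunits PFDN2 and VBP1 fell in input, with log2 changes of -1.36 ± 0.32 and -0.72 ± 0.16, and the cofactor TBCC rose by 0.52 ± 0.18 (edgeR adjusted p = 0.0436), whereas DESeq2 called 0 genes of the list higher. In footprints the genes that fell furthest were PFDN2, PFDN4 (-0.57 ± 0.16) and VBP1 (-0.50 ± 0.13), and TBCEL, a relative of the cofactor TBCE, rose by 0.69 ± 0.21.

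None of the 3 genes listed for tubulin mRNA autoregulation passed in input by edgeR, DESeq2 or limma-trend, with 0 also at an unadjusted p under 0.05. Of all tested genes edgeR called 32.1% in input and 49.4% in footprints, and 3 genes are few to set against those shares. TTC5, which reads the nascent tubulin chain, changed by -0.02 ± 0.21, SCAPER, its partner, by -0.27 ± 0.24, and CNOT11, the subunit that links them to the deadenylase, by -0.03 ± 0.18. In footprints edgeR called 0 of 3, with CNOT11 at 0.24 ± 0.10 below an unadjusted p of 0.05 (adjusted p = 0.0804), and DESeq2 and limma-trend called 0. TTC5 was at 150 ± 24.0 normalized counts in DMSO input and 147 ± 17.6 under trametinib.

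Of 22 tested genes for microtubule stability, growth and severing, 7 fell and 2 rose in input (median -0.15), and 8 fell and 4 rose in footprints (median -0.02). Of all tested genes 16.8% fell and 15.4% rose in input, and 25.6% fell and 23.9% rose in footprints. The counts that fell are thus above the shares of all genes, and the counts that rose are below them. STMN1, which sequesters tubulin dimers, had log2 changes of -1.01 ± 0.15 in input and -0.96 ± 0.12 in footprints. The plus-end proteins CLASP2 (-1.23 ± 0.20) and CKAP5 (-1.20 ± 0.16) fell in input, as did KATNA1 (-1.09 ± 0.19), the catalytic subunit of the severing enzyme katanin. MAP2, a protein that stabilises microtubules, rose by 1.62 ± 0.31 and CAMSAP3, which caps minus ends, by 0.69 ± 0.21. In footprints CKAP5 (-1.09 ± 0.11) and KATNA1 (-1.03 ± 0.13) were among those that fell, while MAP2 rose by 1.63 ± 0.24, CAMSAP2 by 0.55 ± 0.11 and CAMSAP3 by 0.47 ± 0.13.

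Among 10 tested genes of tubulin modification, 1 fell in input, TTL, the ligase that puts the terminal tyrosine back on alpha-tubulin (-0.55 ± 0.17), a call that DESeq2 did not make. The list median was 0.16, and of all tested genes 16.8% fell and 15.4% rose in input. In footprints TTL (-0.44 ± 0.14) and TTLL12 (-0.41 ± 0.12) fell, and 4 genes rose, with a median of 0.30, against 25.6% lower and 23.9% higher among all tested genes. VASH1, a carboxypeptidase that removes the terminal tyrosine, rose by 0.91 ± 0.29, AGTPBP1, which trims glutamate residues, by 0.68 ± 0.12, and SVBP, the partner of VASH1, by 0.60 ± 0.17. In ribosome density 0 genes of the 5 lists passed by edgeR, DESeq2 or limma-trend, with 3, 2 and 3 at an unadjusted p under 0.05. By edgeR 866 of all 10663 tested genes reached that unadjusted level.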

How the data were processed

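The authors trimmed adapters, removed rRNA and tRNA reads with Bowtie 1.2.2, mapped the rest to Gencode V38 transcripts and deposited raw counts of reads of footprint length within the reading frames of 1 gene symbol, beside a normalized signal that the authors made with DESeq2 1.46.0. Recomputed size factors equalled theirs in 12 of 12 libraries (tolerance 1e-06). The deposited fold changes and p-values were not used. Normalized counts are counts divided by these size factors.

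The 10663 genes that reached 10 counts or more in 3 or more of the input libraries were tested with edgeR 4.0.16 (glmQLFit, R 4.3.3), with TMM scaling within input and within footprints, and with the size factors for density. DESeq2 1.42.0 and limma-trend (limma 3.58.1, prior count 2), other scalings and filters, blocks and leaving out libraries were alternatives. Standard errors are the log2 change over the root of F. The scripts were tested on simulated data: in input 66 of 100 genes changed 2-fold and 96 of 100 changed 4-fold were recovered, in footprints 81 and 99. The median standard error over genes was lower in footprints, the deeper libraries, than in input; the cause was not tested.

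All members are named, and from each list at most 3 genes per direction with the largest called change, besides TTC5, SCAPER, CNOT11 and STMN1. One gene that the rule names and 1 coding stretch are not reported here. Members and lists were chosen with earlier results of these data known. The labels call the replicates biological and give no batch or day, so p-values in input and footprints measure the spread between these dishes. The density test had no term for the dish, so it treats the input and footprints of 1 dish as unrelated. Input and footprints of the same treatment and number were taken as 1 dish, which the labels imply and do not state. Same-numbered footprint libraries deviated together only weakly in the 2 treatments (r = 0.12, 0.13 and 0.29), and the fit with that block changed none of the 9 tubulin calls there.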

Additional observations from a re-analysis of the deposited data

How the results depend on the processing

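The number of tubulin genes that fell was 5 or 6 in input and 7 to 9 in footprints under the alternatives that kept all libraries or left out DMSO dish 1, an alternative chosen after seeing the data, and 4 to 6 and 6 to 9 when 1 library was left out. No tubulin gene rose, and none passed in ribosome density, under any of them. The mean shares of counts without 1 replicate were 0.226% to 0.319% in DMSO input, 0.306% to 0.450% in DMSO footprints, 0.0768% to 0.0814% in trametinib input and 0.0922% to 0.0944% in trametinib footprints. Of the 126 single values in input 114 kept direction and call, of 126 in footprints 112, and of 189 in ribosome density 175. In input and in footprints, leaving out DMSO replicate 1 and leaving out DMSO dish 1 are the same fit, and both are counted here. The others were lost calls of TUBA4A and TUBB2A in input and of TUBB3 and TUBA4A in footprints, a gained call of TUBA1A in footprints, and changes of sign.

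TUBA1A footprints turned to 0.12 with library totals, 0.027 with limma-trend and 0.023 with the replicate block, and ranged from -0.34 to 0.23 when 1 library was left out. TUBA1A input ranged from -0.35 to 0.33 and TUBB3 input from -0.65 to 0.074, while TUBA4A input ranged from -1.51 to -0.57. In density TUBA1C turned to 0.086 with library totals, under which the median over all genes was 0.18, and TUBA1B to -0.051 without DMSO dish 1. Leaving out 1 library gave density changes of -0.39 to 0.32 for TUBA1A, -0.27 to 0.41 for TUBA1B, -0.20 to 0.034 for TUBA1C, -0.86 to 0.21 for TUBA4A and -0.53 to 0.057 for TUBB4B. The cause was not tested.

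Over all genes, those with higher density numbered 5 in the main result, 10 with TMM, 27 with library totals, 37 with DESeq2, 8 with the replicate block by number, 19 with the block by dish, 14 without DMSO dish 1 and 1 to 11 when 1 library was left out; those with lower density then numbered 68 to 129, and those higher in input 1069 to 1767. In input the same-numbered libraries of the 2 treatments correlated with r = 0.07, 0.05 and 0.33, values near those in footprints. Whether the numbers pair them was not tested. The block left the tubulin count at 6. Over all genes in input 1959 were higher and 2053 lower with it, beside 1641 and 1787 in the main result. Depth limits the members with few reads: TUBB2B had 0 counts in every input library, and TUBB3, TUBA1A, TUBB2A and TUBA4A had 7 to 141.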

Other observations

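Of 8 other alpha- and beta-tubulin genes that were listed, only TUBB4A, a beta-tubulin known chiefly from brain, had enough input counts to be tested. Its normalized counts in input were 32.4, 86.4 and 138 in DMSO and 55.4, 36.0 and 72.0 under trametinib, and the groups overlapped. In contrast to the other beta-tubulins its footprint count was far above its input count. The log2 ribosome density of TUBB4A was 2.61, 2.28 and 1.84 in the DMSO dishes and 2.72, 3.13 and 2.29 under trametinib, which placed it at percentile 98.8 of all tested genes in DMSO. Its change was -0.63 ± 0.43 in input, -0.10 ± 0.28 in footprints and 0.53 ± 0.59 in density, with edgeR adjusted p of 0.289, 0.784 and 0.929. In the annotation 75.3% of its 30-base windows belonged to no other symbol, with 255 windows shared with TUBB2A.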
